A study of Homo sapiens with 6 samples.

Results

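The genes described here encode proteins that start or restrain plasminogen activation and blood clotting at the cell surface: PLAU, PLAUR, PLAT, SERPINE2, F3, TFPI, TFPI2, THBD and F2RL1. The rule takes them by name and uses no measured value, but the set was put together with earlier results of these data known. They are 9 of the 56303 genes in the deposited table of counts. The samples are labelled T24, an established human cell line that comes from a carcinoma of the bladder. Whether the cells were of this line was not tested. The RNA was sequenced as stranded mRNA libraries on the DNBSEQ-T7 platform, to ask which genes depend on the F-box protein FBXL6. The 6 samples came in 2 groups of 3. Those labelled siNC (genotype label WT) had received a negative control siRNA, and those labelled siFBXL6 (genotype label FBXL6 knockdown) had received an siRNA against FBXL6. All 6 carried 1 batch label and were grown in RPMI medium with serum, and the siRNA used against FBXL6 is not named for these samples. The sample titles siFBXL6-1 to siFBXL6-3 were read as replicate numbers. The study also uses siFBXL6-1 and siFBXL6-2 as names of 2 siRNAs, so this reading is not certain. The study's general statement on statistics speaks of independent replicates, but no source used here says whether these sequenced samples were separate cultures, so p-values measure only the spread between these samples, which may be technical. The libraries labelled siNC held 58646515, 60967902 and 56814946 counts, and the libraries labelled siFBXL6 held 60968158, 60898556 and 60754015.

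Plasminogen is cut to plasmin, a protease that digests fibrin and extracellular matrix, by a pair of activators, urokinase (PLAU) and tissue plasminogen activator (PLAT). Urokinase is held at the cell surface by its receptor PLAUR, and serpins such as SERPINE2 trap the activators. Tissue factor (F3) binds factor VII to start clotting, TFPI and TFPI2 are Kunitz-type protease inhibitors, thrombomodulin (THBD) binds thrombin and turns it toward protein C, and F2RL1 is a receptor opened by trypsin-like proteases and by the tissue factor complex. Urokinase and its receptor are long studied in urothelial carcinoma, where they are linked to invasion.

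FBXL6, the gene named in the labels, did not separate the groups. It was counted 362, 414 and 398 times in siNC replicates 1, 2 and 3, and 398, 344 and 350 times in siFBXL6 replicates 1, 2 and 3. The level was 6.61 ± 0.380 CPM (counts scaled to a common library size with edgeR's TMM factors, SD, n = 3) against 6.03 ± 0.483 CPM (SD, n = 3), with overlap between the groups and an edgeR adjusted p of 0.247. In edgeR the fold was 0.912 (95% interval 0.806 to 1.03), so a fall of this count below a fold of 0.806 lies outside the interval. Other genes share 37.0% of the exon bases of FBXL6, so its level is uncertain to that extent. The target count therefore does not bear out the knockdown label, and the cause was not tested. The groups are called by their labels throughout, so every direction below is that of the libraries labelled siFBXL6 against those labelled siNC.

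The members lie on 8 chromosomes and were not chosen for any shared sequence. RefSeq promoter windows of 300 bases (250 before and 50 after the start site, GRCh38.p14) were found for 7 of the 9 genes, and 3 of these hold the AP-1 letters TGANTCA, a palindrome that reads the same on both strands. The same letters occur in 7.76% of 27305 promoter windows. The 3 windows are shown to let the matches, which the capitals mark, be read in their surroundings. Whether the match goes with the size of the change was not tested. All are written 5′ to 3′ on the minus strand, the strand of the gene, with F3 at chr1:94541710-94542009, PLAUR at chr19:43670120-43670419 and TFPI2 at chr7:93890704-93891003.

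F3: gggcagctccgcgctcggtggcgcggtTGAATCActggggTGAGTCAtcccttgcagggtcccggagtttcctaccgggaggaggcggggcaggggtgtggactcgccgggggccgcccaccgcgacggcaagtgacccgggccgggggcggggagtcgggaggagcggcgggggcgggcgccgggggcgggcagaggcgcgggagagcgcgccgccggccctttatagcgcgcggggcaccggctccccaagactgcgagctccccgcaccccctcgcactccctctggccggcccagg
PLAUR: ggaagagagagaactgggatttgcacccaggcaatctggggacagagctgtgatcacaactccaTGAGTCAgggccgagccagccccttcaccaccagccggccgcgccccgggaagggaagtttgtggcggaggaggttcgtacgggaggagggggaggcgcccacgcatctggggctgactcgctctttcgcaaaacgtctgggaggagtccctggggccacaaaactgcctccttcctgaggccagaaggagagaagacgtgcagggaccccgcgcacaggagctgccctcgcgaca
TFPI2: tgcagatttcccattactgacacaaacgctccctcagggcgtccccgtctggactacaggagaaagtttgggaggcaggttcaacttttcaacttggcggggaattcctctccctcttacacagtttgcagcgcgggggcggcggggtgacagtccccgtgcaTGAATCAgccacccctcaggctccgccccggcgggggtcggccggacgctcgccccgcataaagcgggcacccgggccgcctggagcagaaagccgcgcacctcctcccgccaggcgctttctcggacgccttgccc

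F3 holds the letters at -223 (TGAATCA) and at -210 (TGAGTCA) from the start site, PLAUR at -186 (TGAGTCA) and TFPI2 at -87 (TGAATCA). The windows of PLAU, SERPINE2, TFPI and F2RL1 hold none, and the window listed besides for PLAU and for SERPINE2 holds none either. Both strands were searched for 3 other motifs. The NF-kB letters (GGG, any 2 bases, TT, any base and CC) occur in none of the 7 windows and in 5.67% of all windows. The Sp1 letters GGGCGG occur in 4 (F2RL1, F3, SERPINE2 and TFPI2), in the windows listed besides for PLAU and SERPINE2, and in 44.6% of all windows, and TATAAA occurs in 1, that of F3 at -28 on the opposite strand, and in 3264 of the 27305. No match overlapped a match to another motif. A match is a run of letters, and binding was not measured here.

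Of all genes, 21298 had enough counts to be tested, and 8569 of them (40.2%) had an edgeR adjusted p under 0.05. In the libraries labelled siFBXL6, 4360 (20.5%) were called higher and 4209 (19.8%) called lower. All 9 genes were tested and all 9 were higher at this threshold, beside 20.5% of genes tested, but under 6 of 13 alternatives the call of TFPI was lost and 8 were higher. Since the set was chosen with earlier results known, this count is a description of the 9. Their log2 fold changes ran from 0.13 for TFPI to 1.07 for TFPI2, with a median of 0.57, beside a median of -0.01 over all genes tested. For 8 of the 9, TFPI being the exception, every library labelled siFBXL6 lay above every library labelled siNC, which held for 24.3% of genes tested. Only TFPI2 was higher by at least 2-fold, as were 1.77% of genes tested. These are levels in bulk RNA, in which fewer cells of a type and less RNA per cell cannot be told apart.

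**Figure D1:**
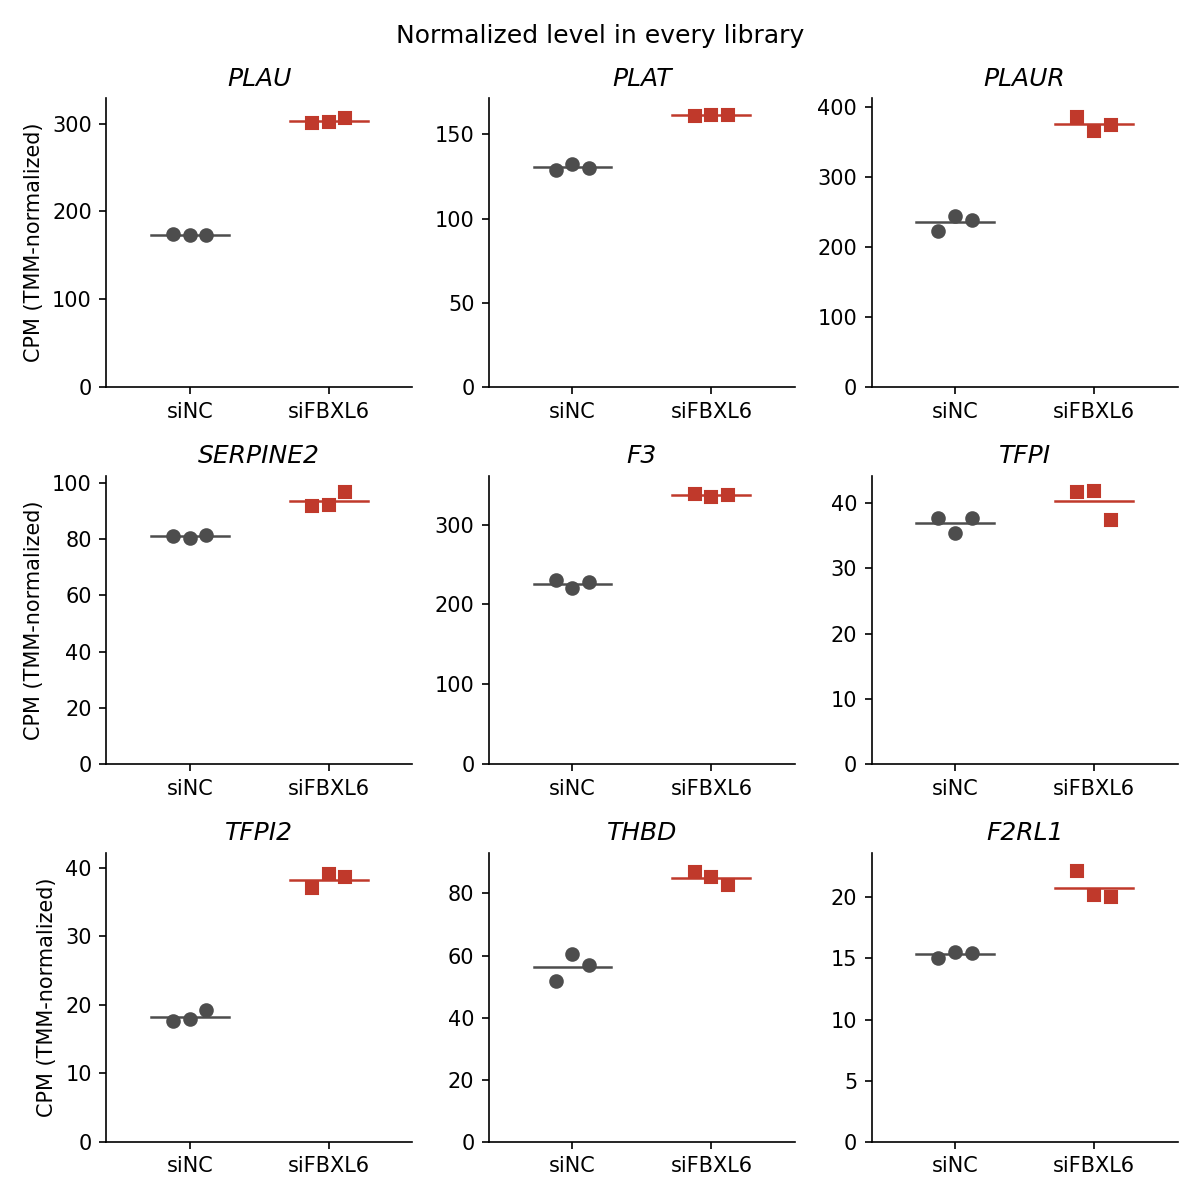
Normalized level (CPM, TMM-scaled, axes from 0) of each of the 9 genes in every library, with siNC as grey circles, siFBXL6 as red squares and a line at each group mean (n = 3). The groups are apart in 8 panels and overlap for TFPI, where 1 red square at 37.3 CPM lies under 2 grey circles at 37.6 CPM.

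PLAU, the urokinase gene, had the second-largest fold change of the 9 and the smallest adjusted p. It was at 174.9, 173.0 and 173.1 CPM in siNC replicates 1 to 3 and at 300.7, 302.2 and 307.0 CPM in siFBXL6 replicates 1 to 3. The lowest library labelled siFBXL6 lay 125.8 CPM above the highest library labelled siNC, while the SD within a group was 1.08 and 3.31 CPM. The fold was 1.75 (95% interval 1.68 to 1.82), a log2 fold change of 0.80 (adjusted p = 2.09e-21, standard error 0.029). PLAU lies at chr10:73909177-73917497 of GRCh38 on the plus strand, and C10orf55 on the minus strand shares 31.1% of its exon bases. The level of C10orf55 was 42.8 ± 0.583 CPM in siNC and 73.6 ± 0.369 CPM in siFBXL6 (SD, n = 3 each), and its log2 fold change was 0.78. No source says whether counting used the strand, so reads of this pair cannot be told apart with certainty and the level of PLAU is uncertain to that extent.

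PLAUR, the receptor that holds urokinase at the cell surface, was at 222.1, 244.3 and 238.9 CPM in siNC replicates 1 to 3. It was at 384.9, 365.5 and 374.2 CPM in siFBXL6 replicates 1 to 3. The groups were 121.1 CPM apart at their closest, and siNC replicate 1 was the lowest of the 6. In edgeR the log2 fold change was 0.67 (adjusted p = 5.97e-18, standard error 0.033), a fold of 1.59 (95% interval 1.52 to 1.67). Its exons, within chr19:43646095-43670547 on the minus strand, share no base with another gene.

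PLAT, the other activator, differed less. It was at 128.8, 132.2 and 130.2 CPM in siNC replicates 1 to 3 and at 160.8, 161.4 and 161.8 CPM in siFBXL6 replicates 1 to 3. The libraries labelled siFBXL6 were close to each other (SD 0.538 CPM) and all above the others. The log2 fold change of 0.31 (adjusted p = 2.40e-10, standard error 0.030) had a 95% interval of 0.25 to 0.37, which lies wholly below that of PLAU, 0.75 to 0.86. Of all genes tested 15.9% had a higher log2 fold change than PLAT, against 3.14% for PLAU and 4.46% for PLAUR. PLAT spans chr8:42175233-42207724 on the minus strand and shares no exon base with another gene.

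SERPINE2, a serpin also called protease nexin 1 that traps urokinase, tissue plasminogen activator and thrombin, was higher by little. It was at 81.0, 80.5 and 81.5 CPM in siNC replicates 1 to 3 and at 91.7, 92.0 and 96.8 CPM in siFBXL6 replicates 1 to 3. The groups did not overlap, with 10.2 CPM between them at their closest, and siFBXL6 replicate 3 was the highest library. The log2 fold change was 0.21 (adjusted p = 1.95e-06, standard error 0.032), a fold of 1.16 (95% interval 1.10 to 1.21), and 23.0% of genes tested had a higher one. The gene lies at chr2:223975112-224039319 on the minus strand.

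F3, which encodes tissue factor, was at 230.5, 220.4 and 227.5 CPM in siNC replicates 1 to 3. It was at 338.2, 334.4 and 336.8 CPM in siFBXL6 replicates 1 to 3. Every library labelled siFBXL6 lay at least 104.0 CPM above those labelled siNC, and their SD was 1.88 CPM against 5.18 CPM. This gave a log2 fold change of 0.57 (adjusted p = 2.19e-17, standard error 0.029), a fold of 1.49 (95% interval 1.43 to 1.55). F3 lies at chr1:94529225-94541800 on the minus strand, and its promoter window is the one printed above with the AP-1 letters at 2 places.

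TFPI2, a Kunitz-type inhibitor of plasmin and other trypsin-like proteases that is deposited in the extracellular matrix, had the largest fold change of the 9. It was counted 1032, 1106 and 1109 times in siNC replicates 1 to 3 and 2240, 2362 and 2332 times in siFBXL6 replicates 1 to 3. This came to 17.7, 17.9 and 19.3 CPM against 37.0, 39.1 and 38.7 CPM, and the groups were 17.7 CPM apart at their closest. The log2 fold change was 1.07 (adjusted p = 4.88e-19, standard error 0.047), a fold of 2.09 whose 95% interval of 1.96 to 2.24 includes 2. Of the genes tested 1.70% had a higher log2 fold change. GNGT1 and AC002076.10 on the other strand share 4.62% of its exon bases, and their counts were 156 to 271 for GNGT1 and 3 to 14 for AC002076.10. GNGT1 was higher as well, with a log2 fold change of 0.64 (adjusted p = 1.79e-05) and no overlap, so the level of TFPI2 is uncertain to the extent of the shared bases.

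TFPI, the main inhibitor of the tissue factor and factor VIIa complex, differed least, and its call rested on single libraries. It was at 37.63, 35.32 and 37.63 CPM in siNC replicates 1 to 3 and at 41.56, 41.72 and 37.32 CPM in siFBXL6 replicates 1 to 3. Replicates 1 and 2 of siFBXL6 were the highest of the 6, while replicate 3 lay under siNC replicates 1 and 3, so there was overlap (p = 0.3 in a two-sided exact permutation test, where 3 samples against 3 cannot give less than 0.1). In edgeR it had a log2 fold change of 0.13 (adjusted p = 0.0219, standard error 0.044). The adjusted p rose to 0.141 without siNC replicate 2 (log2 fold change 0.10), to 0.127 without siFBXL6 replicate 1 (0.10) and to 0.142 without siFBXL6 replicate 2 (0.10). It was 0.0561 with upper-quartile factors, 0.0609 with library size alone and 0.0674 in DESeq2, and over all alternatives it ran from 0.00342 to 0.142. TFPI lies at chr2:187464230-187565760 on the minus strand, and AC007319.1 shares 1.01% of its exon bases.

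THBD encodes thrombomodulin, the receptor that turns thrombin from clotting toward activation of protein C. It was at 51.84, 60.46 and 56.96 CPM in siNC replicates 1 to 3 and at 86.82, 85.39 and 82.85 CPM in siFBXL6 replicates 1 to 3. The siNC libraries spread the most of any of the 9 genes in that group (coefficient of variation 7.68%), with replicate 1 the lowest as for PLAUR, and still lay 22.4 CPM below the others at the closest. THBD thus had a log2 fold change of 0.59 (adjusted p = 2.85e-14, standard error 0.040), a fold of 1.51 (95% interval 1.42 to 1.59). THBD lies at chr20:23045633-23049741 on the minus strand.

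F2RL1 encodes protease-activated receptor 2, which trypsin-like proteases switch on by cutting its outer end. It had the lowest CPM of the 9 genes in both groups and was counted 880, 957 and 889 times in siNC replicates 1 to 3 and 1339, 1219 and 1206 times in siFBXL6 replicates 1 to 3. The levels were 15.05, 15.49 and 15.48 CPM against 22.14, 20.18 and 20.01 CPM, and siFBXL6 replicate 1 stood highest. Its log2 fold change was 0.44 (adjusted p = 6.09e-08, standard error 0.055), a fold of 1.35 (95% interval 1.25 to 1.47). F2RL1 lies at chr5:76818933-76835315 on the plus strand, and its exons share no base with another gene.

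**Figure D2:**
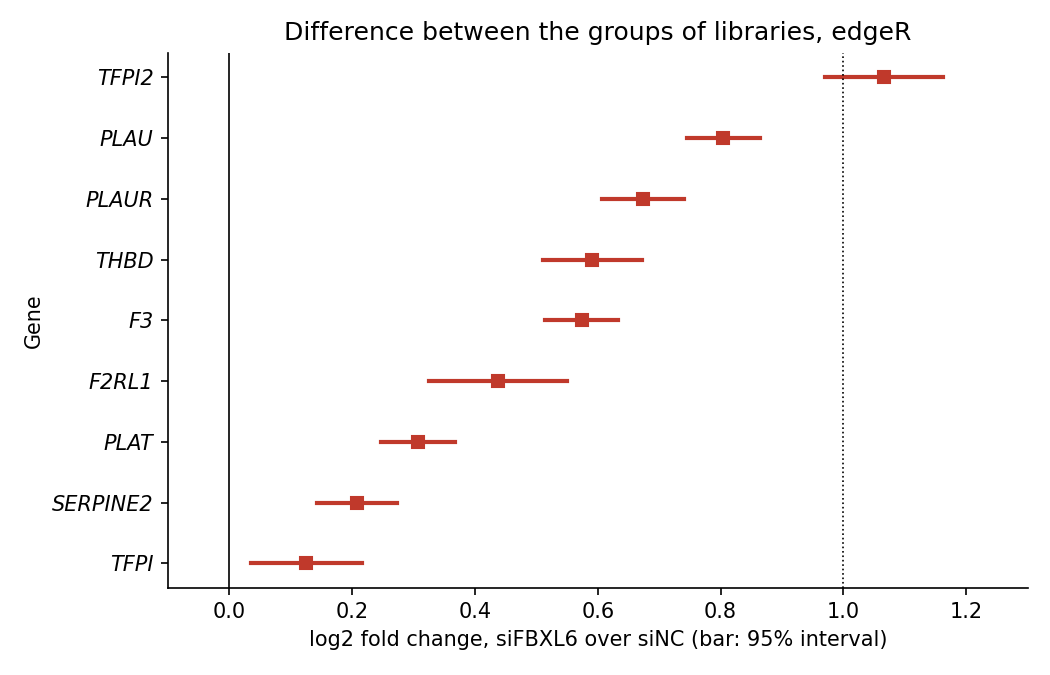
Log2 fold change of siFBXL6 over siNC for the 9 genes (squares) with 95% intervals from edgeR (bars, n = 3 per group), ordered by size, with a solid line at 0 and a dotted line at 1. The values run from 1.07 for TFPI2 and 0.80 for PLAU to 0.13 for TFPI, and every interval lies above 0.

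In order of size the log2 fold changes were TFPI2, PLAU, PLAUR, THBD, F3, F2RL1, PLAT, SERPINE2 and TFPI. The interval of TFPI2 (0.97 to 1.16) lay above that of PLAU (0.75 to 0.86). That of PLAUR was lower still (0.61 to 0.74), and over the alternatives PLAUR ran from 0.63 to 0.70 and PLAU from 0.78 to 0.81. The ratio of PLAUR to PLAU within a library overlapped between the groups (exact permutation p = 0.2). With 3 samples against 3 that test cannot give less than 0.1, so it cannot settle the order of these 2. The intervals of PLAUR, THBD (0.51 to 0.67) and F3 (0.51 to 0.63) overlapped, as did those of each neighbouring pair from F3 down to TFPI (0.04 to 0.22). Overlap of intervals does not show that values are alike. The differences between these neighbours were not tested, so their order is not settled. No library was an extreme throughout. Within siNC, replicate 1 was lowest for 5 of the 9 genes and replicate 2 for 4, and within siFBXL6, replicate 1 was highest for 4 and lowest for 4.

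Levels were compared between genes per length, as TPM (counts divided by exon length and scaled to the same sum in each library), computed from the deposited counts and summed exon lengths. In the libraries labelled siNC the order was F3 (227 ± 5.71 TPM), PLAU (170 ± 1.56), PLAUR (152 ± 7.09), PLAT (56.9 ± 0.619), THBD (39.6 ± 2.94), SERPINE2 (26.3 ± 0.190), TFPI2 (19.8 ± 0.937), F2RL1 (14.97 ± 0.205) and TFPI (9.08 ± 0.343 TPM; SD, n = 3 for each). No neighbours in this order overlapped. In the libraries labelled siFBXL6 the order was the same except that TFPI2 (41.5 ± 1.34 TPM) stood above SERPINE2 (30.4 ± 0.902 TPM, SD, n = 3 each), and again no neighbours overlapped. F3 remained at the top (338 ± 0.398 TPM) and TFPI at the bottom (9.91 ± 0.633 TPM, SD, n = 3 each). The summed exon length counts exons of every isoform, 11714 bases for TFPI and 8891 for SERPINE2 against 2663 for TFPI2 and 2875 for F3, so the TPM of genes with long, seldom used exons is understated.

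**Figure D3:**
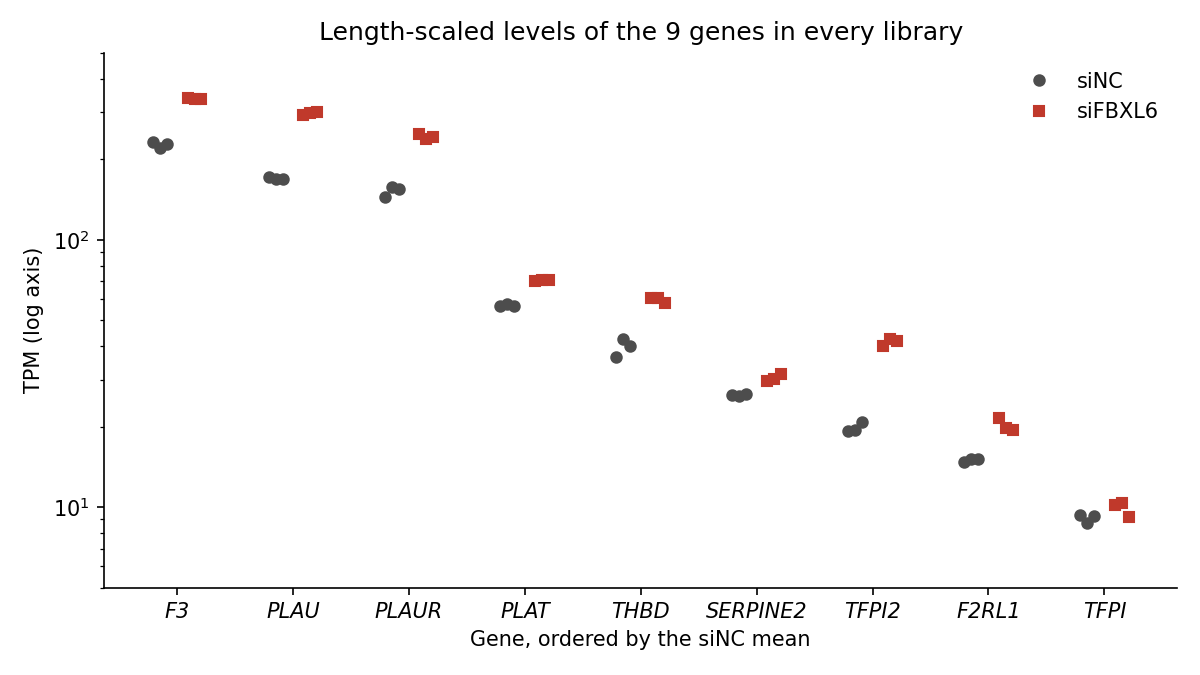
TPM of the 9 genes in each library on a log axis, ordered by the siNC mean, with siNC as grey circles and siFBXL6 as red squares. F3 is the highest gene and TFPI the lowest in both groups, and TFPI2 and SERPINE2 change places, from 19.8 and 26.3 TPM to 41.5 and 30.4 TPM.

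Ratios of these levels within a library do not depend on the scaling between libraries, and the change of a ratio of 1 gene to another does not depend on length. The 5 ratios were picked after the levels had been seen, and 3 of them did not overlap between the groups. Each of these had the smallest p that an exact two-sided permutation test of 3 against 3 can give, 0.1, and 0.167 after Benjamini-Hochberg adjustment over the 5. The ratio of TFPI2 to TFPI was 2.06, 2.23 and 2.26 in siNC replicates 1 to 3 and 3.92, 4.12 and 4.56 in siFBXL6 replicates 1 to 3, with no overlap. F3 over TFPI2 was 12.1, 11.4 and 10.9 in siNC and 8.46, 7.92 and 8.06 in siFBXL6, lower in every library, while F3 over TFPI was 24.95, 25.42 and 24.63 against 33.15, 32.66 and 36.78, higher in every library, both computed later and given without a test. A ratio to the sum of both inhibitors therefore has no set direction. On TPM it was 8.15, 7.87 and 7.56 in siNC and 6.74, 6.38 and 6.61 in siFBXL6, but on CPM, without the length scaling that lowers TFPI, it was 4.17, 4.141 and 3.995 against 4.30, 4.14 and 4.43, with overlap and a higher mean. The ratio of PLAU to PLAT was 3.05, 2.94 and 2.98 in siNC and 4.20, 4.20 and 4.26 in siFBXL6.

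Other pairs kept closer to each other. F3 over THBD was 6.35, 5.21 and 5.71 in siNC and 5.57, 5.60 and 5.81 in siFBXL6, and the groups overlapped (exact permutation p = 0.8, adjusted p = 0.8). PLAUR over PLAU was 0.840, 0.935 and 0.913 against 0.847, 0.801 and 0.807, also with overlap (exact permutation p = 0.2, adjusted p = 0.250).

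Of 19 other genes of the plasminogen system, 17 were tested and 10 were called (58.8%, beside 40.2% of all genes tested), 7 higher and 3 lower, with a median log2 fold change of 0.28. Plasminogen itself (PLG, named after its values were seen) had 1.35 ± 0.499 CPM in siNC and 1.19 ± 0.158 CPM in siFBXL6 (SD, n = 3 each), and the groups overlapped. SERPINB2, the intracellular and secreted urokinase inhibitor PAI-2, was at 86.4 ± 0.956 CPM in siNC and 372 ± 4.62 CPM in siFBXL6 (SD, n = 3 each), which is 2.11 higher on the log2 scale (adjusted p = 2.17e-32, standard error 0.031). SERPINB10 on the same strand shares 19.9% of its exon bases, so its count is uncertain to that extent. Also called higher were PLGRKT (log2 fold change 0.92, adjusted p = 2.3e-11), IGF2R (0.36, 1.57e-12) and ANXA2 (0.28, 3.49e-10), named after their values were seen. KLKB1, named likewise, was at 0.62 (adjusted p = 0.0017) from a low level (1.44 ± 0.138 to 2.225 ± 0.254 CPM, SD, n = 3 each). Lower were 3 genes, MRC2, a collagen receptor that binds the urokinase receptor, at a log2 fold change of -0.55 (79.1 ± 1.32 to 53.9 ± 2.30 CPM, SD, n = 3 each, adjusted p = 6.72e-15), SERPINA5, the protein C inhibitor, at -2.21 from a low level (1.31 ± 0.196 to 0.282 ± 0.0833 CPM, SD, n = 3 each, adjusted p = 2.96e-08), and SERPINI1, named after its values were seen. SERPINI1, the neuroserpin gene, was at -0.97 (0.662 ± 0.139 to 0.337 ± 0.113 CPM, SD, n = 3 each, adjusted p = 0.0146). Its adjusted p rose to 0.0657 without siNC replicate 1 (-0.85), 0.0551 without siNC replicate 2 (-0.92), 0.0798 without siFBXL6 replicate 1 (-0.80), 0.0556 without siFBXL6 replicate 2 (-0.89) and 0.0556 in DESeq2, within a range from 0.00638 to 0.0798. ENO1, a glycolytic enzyme that also binds plasminogen at the cell surface, had a log2 fold change of 0.09 (adjusted p = 0.00793), and its adjusted p rose to 0.0532 without siNC replicate 2 (log2 fold change 0.07) and to 0.0634 without siFBXL6 replicate 3 (0.09), the highest of a range from 1.05e-05.

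Of 30 other coagulation factors and anticoagulants, 22 were tested and 6 were called, 3 higher and 3 lower, with a median of 0.02. The share called was 27.3%, below the 40.2% of all genes tested, and none of the 6 changed 2-fold. The 3 with the smallest adjusted p were all higher. LMAN1 and MCFD2, whose proteins form the receptor that carries factors V and VIII out of the endoplasmic reticulum, had log2 fold changes of 0.66 (adjusted p = 4.42e-18) and 0.50 (adjusted p = 4.19e-16). ANXA5, which binds the phosphatidylserine that clotting factors assemble on, had one of 0.49 (adjusted p = 3.27e-15). The 3 called lower were named after their values were seen. PROC, the gene of protein C, was at 6.48 ± 0.971 CPM in siNC and 4.07 ± 0.474 CPM in siFBXL6 (SD, n = 3 each), -0.67 on the log2 scale (adjusted p = 4.02e-06). PROS1, whose product protein S is the cofactor of activated protein C, was at -0.46 (adjusted p = 1.67e-05). GGCX, the carboxylase that modifies vitamin K-dependent factors, was at -0.12 (adjusted p = 0.0221), and its adjusted p rose to 0.0836 without siNC replicate 2 (-0.10), 0.0849 without siFBXL6 replicate 2 (-0.11) and 0.0661 in DESeq2, within a range from 0.00745 to 0.0849.

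Of 15 other genes for protease-activated receptors, proteases and protease inhibitors, 11 were tested and 6 were called (54.5%, beside 40.2% of all genes tested), 5 higher and 1 lower, with a median of 0.17. SPINT1 and SPINT2, Kunitz-type inhibitors of membrane proteases, had log2 fold changes of 0.30 (114.6 ± 1.44 to 141.2 ± 1.59 CPM, SD, n = 3 each, adjusted p = 4.59e-10) and 0.43 (160.2 ± 5.84 to 216.5 ± 2.16 CPM, SD, n = 3 each, adjusted p = 1.68e-13). CTSS, the protease cathepsin S, had one of 0.62 (29.1 ± 2.32 to 44.9 ± 0.936 CPM, SD, n = 3 each, adjusted p = 3.00e-13). KLK6, a kallikrein, was lower by at least 2-fold, at -2.04 from a level under 1 CPM (0.754 ± 0.243 to 0.182 ± 0.141 CPM, SD, n = 3 each, adjusted p = 0.000105). It was counted only 60, 42 and 32 times in siNC and 19, 12 and 2 times in siFBXL6, and its log2 fold change was -2.68 without siFBXL6 replicate 1 and -1.55 without siFBXL6 replicate 3. CTB-147C22.8 on the other strand (17.3 counts on average) shares 20.3% of its exon bases, so its level is uncertain. The other thrombin receptor tested, F2R (named after its values were seen), had 13.5 ± 0.231 CPM in siNC and 13.9 ± 0.347 CPM in siFBXL6 (SD, n = 3 each, adjusted p = 0.540).

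**Figure D4:**
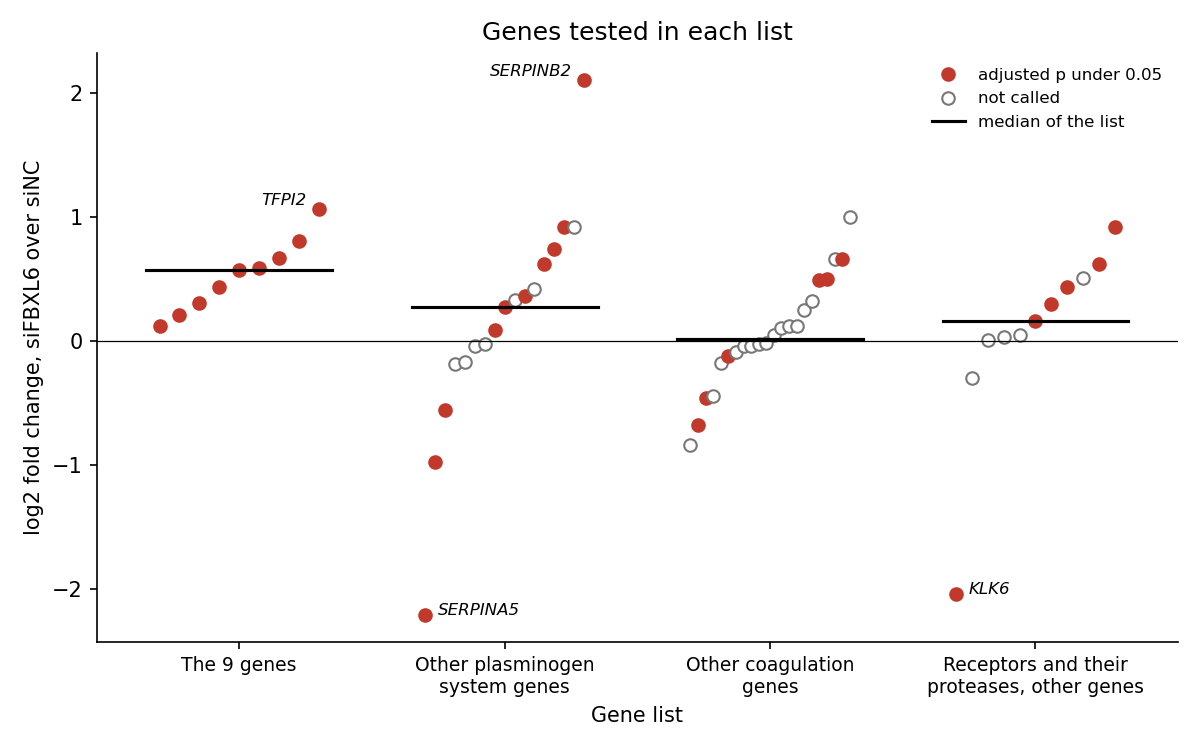
Log2 fold change of siFBXL6 over siNC for the 9 genes and for the tested genes of 3 lists, filled red where the edgeR adjusted p was under 0.05 and open otherwise, with a line at each median. The medians are 0.57, 0.28, 0.02 and 0.17 from left to right, and the named genes (TFPI2, SERPINB2, SERPINA5, KLK6) are those called at least 2-fold.

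The genes most like TFPI2 and PLAU, the pair of members with the largest fold changes, were sought by Pearson's r of log2 CPM over the 6 libraries among 16192 other genes of at least 1 CPM. For TFPI2 they were SLC38A2 (r = 0.9996), EAF1 (0.9996) and SQSTM1 (0.9996). For PLAU they were TMOD3 (0.9999), HEPHL1 (0.9999) and SERPINB10 (0.9998). With 2 groups of 3 libraries a gene that separates the groups in the same direction can score high, and 1849 genes had an r over 0.95 with TFPI2 and 1946 with PLAU. SLC38A2, a transporter of small neutral amino acids, and SQSTM1, an autophagy receptor, had log2 fold changes of 0.44 and 0.59, and HEPHL1 and SERPINB10 had 1.22 and 2.08. SERPINB10 shares exon bases on the same strand with SERPINB2 (log2 fold change 2.11), so its level and fold change are uncertain to that extent.

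Markers of the labelled cell type and of other cell types were read in the same libraries. The 13 urothelial and epithelial markers summed to 3938, 3807 and 3923 CPM in siNC replicates 1 to 3 and to 3474, 3457 and 3468 CPM in siFBXL6 replicates 1 to 3. Of the 10 tested, 7 were called, 1 higher and 6 lower, where 40.2% of all genes tested were called and 19.8% called lower. Keratin 7 (KRT7) was the most abundant, at 1038 ± 21.1 and 983 ± 9.06 CPM (SD, n = 3 each, adjusted p = 0.0188, but 0.0741 without siFBXL6 replicate 1 and 0.107 without siFBXL6 replicate 3, at log2 fold changes of -0.08 and -0.07 and within a range from 0.000987 to 0.107), while the uroplakin genes UPK1A, UPK1B and UPK3A were under 0.1 CPM. The 5 mesenchymal genes, led by fibronectin (FN1, 2429 ± 71.9 and 2180 ± 28.3 CPM, SD, n = 3 each, adjusted p = 1.16e-05), summed to 2758, 2677 and 2618 CPM against 2367, 2405 and 2420 CPM, with 1 called higher and 2 lower of 5 tested. FN1 made up most of that sum, and the list's median log2 fold change was -0.03. The share called was 60.0%, beside 40.2% of all genes tested. The other gene called lower was N-cadherin (CDH2, 137.6 ± 1.83 to 91.7 ± 1.21 CPM, SD, n = 3 each, log2 fold change -0.59, adjusted p = 3.80e-17). The gene called higher was vimentin (VIM, 15.6 ± 0.513 to 25.4 ± 0.528 CPM, SD, n = 3 each, log2 fold change 0.70, adjusted p = 2.57e-13). The epithelial gene called higher was E-cadherin (CDH1, 118.3 ± 2.71 to 132.5 ± 2.79 CPM, SD, n = 3 each, log2 fold change 0.16, adjusted p = 5.99e-05). VIM, CDH2 and CDH1 were named after their values were seen.

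The 9 endothelial markers, of a cell type known for THBD and TFPI, summed to 7.01, 7.64 and 7.68 CPM in siNC and to 7.99, 7.77 and 8.20 CPM in siFBXL6. EGFL7 was the most abundant of them (4.64 CPM), and CLDN5 and EMCN were under 0.1 CPM. Of the 6 tested PECAM1 alone was called (16.7%, beside 40.2% of all genes tested). PECAM1 was at 0.573 ± 0.126 and 1.39 ± 0.365 CPM (SD, n = 3 each, log2 fold change 1.28, adjusted p = 4.41e-05). Without PECAM1, a choice made after seeing the data, the other 8 summed to 6.58, 6.99 and 7.04 CPM in siNC and to 6.68, 6.69 and 6.41 CPM in siFBXL6, with overlap. The 8 fibroblast markers summed to 76.3, 81.1 and 78.0 CPM against 64.5, 64.2 and 61.5 CPM. COL1A1 was the most abundant over all libraries (33.2 CPM), but in siNC it was at 34.95 CPM and THY1 at 36.84 CPM. THY1, named after its values were seen, fell to 25.89 CPM in siFBXL6 (log2 fold change -0.51, adjusted p = 1.94e-11). COL1A1 had a log2 fold change of -0.15. These 2 of the 8 tested were called, both lower (25.0%, beside 19.8% of all genes tested called lower). The 8 blood and immune markers summed to between 1.03 and 2.01 CPM, CD14 was the most abundant (0.561 CPM), CD3E, ITGAM, PF4 and PPBP were under 0.1 CPM, and none of the 3 tested was called. The sums of the epithelial, mesenchymal and fibroblast markers were thus lower in every library labelled siFBXL6. Within these lists VIM and CDH1 were called higher, and some genes were not called in either direction. The endothelial sum was higher only with PECAM1 in it. The part of these markers in the levels of the 9 genes was not tested.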

How the data were processed

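The authors counted reads per gene and deposited 1 table of raw counts for 6 libraries, with summed exon lengths. The study's methods name Trimmomatic, HISAT2 on GRCh38 and featureCounts, while the submitters' processing notes list fastp 0.23.0, STAR, featureCounts and Subread 1.5.1. The sources conflict on trimmer and aligner. The annotation release and the strand and overlap settings are not given in the sources used here.

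From the deposited counts, genes passing edgeR's filterByExpr at its defaults (21298 of 56303) were scaled by TMM and compared by the quasi-likelihood test of edgeR 4.0.16 (with limma 3.58.1 in R 4.3.3) with condition as the only term and Benjamini-Hochberg adjustment over all genes tested. Genes were called at an adjusted p under 0.05, and called 2-fold where the log2 fold change was also 1 or more in size. Standard errors were derived from the log2 fold change and the F statistic of that test, and the 95% intervals from these standard errors. TPM used the deposited length, and no pseudocount was added. The fit was tested on simulated counts. The common biological coefficient of variation was 3.57%. Libraries of a group differed (chi-square per degree of freedom 2.85 to 6.24), so no library was taken for a copy of another. Many low counts are even, such as 6, 4, 2, 6, 2 and 6 for ITGAM. Whether the 2 reads of a pair were counted apart is not stated. Such counting would raise the value that sampling noise alone gives, so the excess over noise is not set. The difference between libraries does not tell separate cultures from separate preparations.

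The members and lists were chosen with earlier results of these data known. Besides the members, FBXL6 and ENO1, the genes named are, in each pathway list, those called at least 2-fold and the 3 with the smallest adjusted p. In each marker list they are the most abundant gene and those called at least 2-fold, and for the 2 members of largest fold change the 3 genes of highest r. The result for 1 gene that this rule selects, with 2 further TPM ratios that use it, is not reported here, and the adjustment over ratios leaves these out. PLG, PLGRKT, IGF2R, ANXA2, KLKB1, F2R, C10orf55, PROC, PROS1, GGCX, SERPINI1, VIM, CDH1, CDH2 and THY1 were named after their values were seen, as were markers under 0.1 CPM. PLGRKT, IGF2R, ANXA2, KLKB1, CDH2 and THY1 were not followed under the alternatives. Promoters are the first RefSeq window listed for each gene (GRCh38.p14). Proteins were not used here. Alternatives were DESeq2 1.42.0, other scalings, a stricter filter and no filter, a block for the replicate number, and fits with a library left out.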

Additional observations from a re-analysis of the deposited data

How the results depend on the processing

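All 9 genes kept their direction under 13 alternatives, and 111 of 117 values kept their side of the threshold. The other 6 were all of TFPI, whose log2 fold change ran from 0.10 to 0.18. The number of the 9 called was 9 or 8, and 1 was called at least 2-fold under each alternative. TFPI2 ran from 1.04 to 1.11, PLAU from 0.78 to 0.81, PLAUR from 0.63 to 0.70, F3 from 0.55 to 0.59 and THBD from 0.53 to 0.64. Over all genes, 622 were called at least 2-fold, and 376 when 10 counts were required in every library, where 19515 genes were tested. With the replicate number as a block 8408 genes were called in place of 8569, and same-numbered libraries did not deviate together (r of -0.0626, 0.00497 and -0.00208 over 12633 genes). Fewer genes were called in DESeq2 (7015) and with a library left out (7451 to 8298), and the share of 40.2% given beside each list is that of the main fit. Of 389 values for 30 other genes named, 374 kept direction and side, 12 lost the call (ENO1, KRT7, GGCX and SERPINI1) and 3 changed sign. These were uncalled markers, CD14, from -0.22 without siNC replicate 1 (-0.10 without siFBXL6 replicate 3) to 0.38 without siNC replicate 2, and EGFL7, from -0.0801 to 0.000607 with siFBXL6 replicate 2 or 1 left out, and the cause was not tested. KLK6 had no value under the filter of 10 counts. Leaving out libraries, an alternative for ratios added after the data were seen, put the log2 change of TFPI2 over TFPI between 0.88 and 0.99, PLAU over PLAT between 0.48 and 0.51, F3 over both inhibitors between -0.28 and -0.23 (but 0.06 on CPM in place of TPM, also added later), PLAUR over PLAU between -0.18 and -0.10, and F3 over THBD between -0.09 (without siNC replicate 2) and 0.05 (without siNC replicate 1), so that the last has no stable sign. Counts per library were few for KLK6 (2 to 60), SERPINA5 (12 to 88) and SERPINI1 (15 to 45), and the part of depth in their values was not tested.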
